A study of Mus musculus with 6 samples.

Results

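Molecular chaperones bind unfolded or newly made proteins and help them fold, assemble or be degraded. The set described here holds the heat shock proteins, their J-domain and nucleotide exchange partners, and the cytosolic chaperonin, in skin keratinocytes sorted on a hair follicle stem cell reporter. Members were the probe sets whose symbol in the platform annotation named an Hsp70, Hsp110, Hsp90, Hsp60, Hsp10 or small heat shock protein, a DnaJ protein, a chaperonin subunit, Stip1, St13 or a Bag protein. This rule used names only and gave 61 genes of 8251 named genes on the array, with 91 probe sets of 12422. Of the 61 genes, 40 had 1 probe set and 21 had several. A further 2 probe sets carried several symbols each and were not counted. No probe set named Hsp90ab1, the constitutive cytosolic Hsp90, so it was not analysed here.

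The arrays came from skin keratinocytes of K15-EGFP mice, in which a keratin 15 promoter drives enhanced green fluorescent protein (EGFP), a reporter used to mark hair follicle bulge stem cells. Cells were sorted into EGFP-high and EGFP-negative fractions, both positive for α6 integrin, a basal keratinocyte surface protein, with 3 arrays in each group. The labels give neither age, strain nor sex, and no label tells if the replicates are separate animals or sorts. The p-values therefore rest on the spread among these arrays, which may be partly technical. Each title carries a replicate number from 1 to 3 that occurs once in each group. Cd34, a bulge stem cell marker, read 1338.8, 1579 and 1450.4 on the EGFP-high arrays of numbers 1, 2 and 3, against 34.4, 29.4 and 40.9 on the EGFP-negative arrays. Lgr5, another stem cell marker of the follicle, read 254.7, 302.4 and 402.6 on EGFP-high arrays, against 6.1, 4.6 and 4.7, at control level, on EGFP-negative arrays. Itga6, which encodes α6 integrin, read 485.1, 405.6 and 585.3 on EGFP-high arrays, against 1178.1, 1050 and 1371.4 on EGFP-negative arrays (adjusted p = 0.00449). The probe sets for the keratins Krt15, Krt14 and Krt5 did not pass the intensity filter, so the keratin labels could not be checked on these values. All values below are the deposited linear intensities, which have no absolute unit, and all differences are EGFP-high minus EGFP-negative on the log2(intensity + 19.3) scale. Where several samples are listed, they follow the replicate numbers 1, 2 and 3. In these sorted populations, fewer cells that express a gene and less RNA per cell cannot be told apart.

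Chaperones fall into genes that every cell uses for routine folding and genes that stress induces. Induction in the cytosol runs through heat shock factor 1 (HSF1), which binds heat shock elements, arrays of short GAA units in alternating orientation, in the promoters of genes such as Hspa1a and Dnajb1. Unfolded protein in the endoplasmic reticulum (ER) induces another set, including Hspa5, through other factors. Isolating cells from tissue is itself known to induce heat shock and immediate early genes, so arrays of sorted cells can hold that response too.

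RefSeq promoter windows of build GRCm38.p6 each ran from 250 bases before to 50 bases after a gene's start. They were matched by gene identifier for 52 of the 61 member genes. In addition, 1 member gene on a chromosome not used for sequence was left out. The windows were searched for pairs of inverted GAA units, GAANNTTC or TTCNNGAA, each of which reads the same on both strands, and the hits may overlap. At least 1 window held such a pair in 10 of 12 inducible genes (83.3%), against 3 of 14 constitutive genes (21.4%), 1 of 7 ER members (14.3%) and 4587 of 27025 genes in the whole table (17%). Heat-induced genes are on the inducible list because of this regulation, so the count describes the list. A run of 3 alternating units occurred in 3 inducible genes (25%) and in 0 of 14 constitutive ones, against 179 genes overall (0.662%). CCAAT or its reverse ATTGG, a common promoter motif, occurred in 50% of member genes and 41.1% of all genes. The following windows are shown because they belong to inducible genes that the results below turn on or, for Hspe1, because it holds the longest run of units. Each is read 5′ to 3′ on the strand of the gene, and capitals mark the matched units. The spans are chr17:34972107-34972406 (minus strand) for Hspa1a, chr17:34959189-34959488 (minus) for Hspa1b, chr7:128523333-128523632 (plus) for Bag3, chr5:116422815-116423114 (minus) for Hspb8 and chr1:55087898-55088197 (plus) for Hspe1.
Hspa1a: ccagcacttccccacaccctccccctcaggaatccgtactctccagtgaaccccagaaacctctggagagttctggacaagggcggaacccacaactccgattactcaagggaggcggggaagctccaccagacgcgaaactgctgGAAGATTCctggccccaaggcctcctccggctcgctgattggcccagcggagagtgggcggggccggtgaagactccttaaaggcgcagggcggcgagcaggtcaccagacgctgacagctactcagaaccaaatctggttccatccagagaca
Hspa1b: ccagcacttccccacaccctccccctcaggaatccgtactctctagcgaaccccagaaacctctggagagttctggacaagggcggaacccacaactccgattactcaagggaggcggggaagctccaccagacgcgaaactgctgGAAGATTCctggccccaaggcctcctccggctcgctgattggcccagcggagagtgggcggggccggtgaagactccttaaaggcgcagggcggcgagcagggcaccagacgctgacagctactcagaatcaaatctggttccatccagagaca
Bag3: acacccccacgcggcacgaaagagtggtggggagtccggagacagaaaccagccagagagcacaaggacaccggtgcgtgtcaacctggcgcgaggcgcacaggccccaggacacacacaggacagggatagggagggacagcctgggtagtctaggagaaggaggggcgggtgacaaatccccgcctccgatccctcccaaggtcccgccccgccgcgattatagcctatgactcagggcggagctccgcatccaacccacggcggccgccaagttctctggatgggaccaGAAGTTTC
Hspb8: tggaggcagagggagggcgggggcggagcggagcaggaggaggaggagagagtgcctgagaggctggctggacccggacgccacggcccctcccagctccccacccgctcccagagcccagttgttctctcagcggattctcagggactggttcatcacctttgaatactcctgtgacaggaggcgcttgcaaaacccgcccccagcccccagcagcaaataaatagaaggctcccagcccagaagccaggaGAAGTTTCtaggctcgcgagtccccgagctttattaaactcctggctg
Hspe1: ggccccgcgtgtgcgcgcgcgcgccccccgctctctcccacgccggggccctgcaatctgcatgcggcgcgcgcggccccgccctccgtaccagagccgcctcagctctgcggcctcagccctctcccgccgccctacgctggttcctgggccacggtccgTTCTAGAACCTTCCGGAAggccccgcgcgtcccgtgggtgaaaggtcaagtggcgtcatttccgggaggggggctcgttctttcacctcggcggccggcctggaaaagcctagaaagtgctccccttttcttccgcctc

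The Hspa1a and Hspa1b windows are identical at 296 of 300 positions, and in both the matched pair begins 104 bases before the start. The Hspb8 match begins 2 bases after the start and the Bag3 match 42 bases after it. The Hspe1 window overlaps an opposite-strand window of Hspd1, and both hold the same run of units. The Hspa4l and Dnajb1 windows hold neither form, and the table used has no entry for Hsp90aa1. A match is a description of these letters and not a measured binding site.

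No chaperone passed the threshold between EGFP-high and EGFP-negative cells without regard to the replicate numbers, although Hspa1a, Hspa1b, Hspa4l and Bag3 passed it upward and St13 and Cct5 downward once the numbers were taken as pairs. Of the 75 tested probe sets of 55 genes, 0 had a limma adjusted p under 0.05, while 5.19% of all 7453 tested probe sets did, 3.02% higher and 2.17% lower. At an unadjusted limma p under 0.05 there were 9 of 75 members, 5 higher and 4 lower. Of all 7453 tested, 1278 had such a p, 631 higher and 647 lower. With the replicate number as a block, limma called 6 of 75 (8%), against 10.4% of all tested. By direction, 4 were higher (5.33%, against 5.13% of all) and 2 lower (2.67%, against 5.31%). These shares lie near or below those of all probe sets. The 3 EGFP-high arrays stood wholly above the 3 EGFP-negative arrays for 7 members (9.33%, against 11.6% of all tested) and wholly below for 8 (10.7%, against 11.1%). Within the replicate numbers, 19 members were higher in EGFP-high cells for all 3 numbers (25.3%, against 21.9% of all tested) and 20 were lower (26.7%, against 22.9%). The median difference over members was -0.02, with 36 positive and 39 negative, against -0.0017 over all tested. Differences lay between -0.98 and 1.10, and 2 members, Hspa1l and a probe set of Bag3, reached a 2-fold difference on this scale. The median absolute difference was 0.27 among members and 0.21 among all tested.

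**Figure D1:**
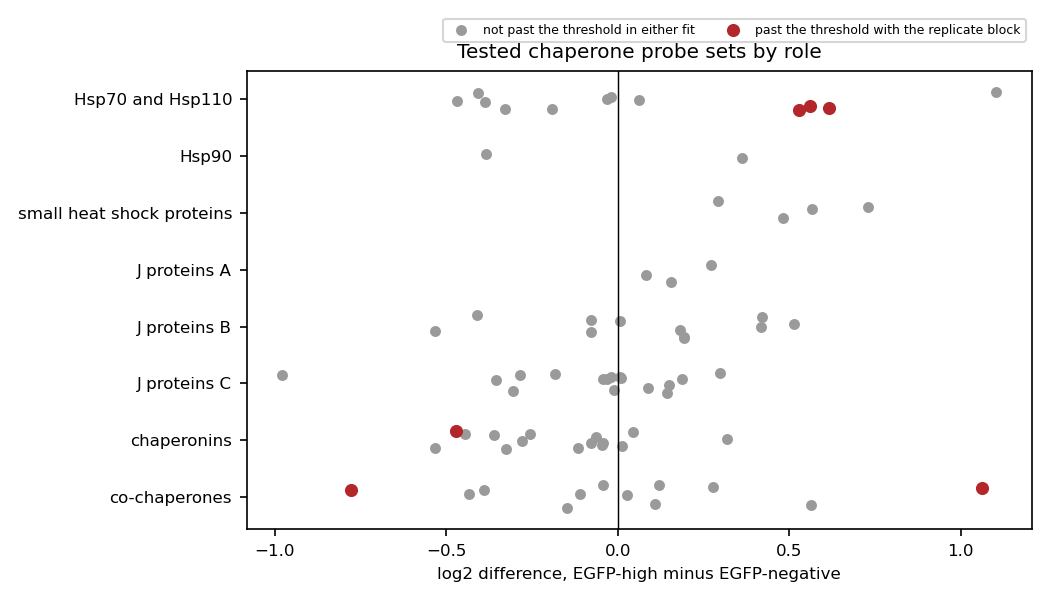
Log2 difference, EGFP-high minus EGFP-negative, of each of the 75 tested chaperone probe sets (points), grouped by role. Red points passed the threshold with the replicate number as a block (4 to the right of 0, 2 to the left) and gray points passed in neither fit. All 4 small heat shock protein points lie to the right of 0, and 12 of 15 chaperonin points lie to the left.

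Hsp70 proteins bind exposed hydrophobic stretches of their clients in cycles driven by ATP, and Hsp110 proteins exchange their nucleotide. The 11 genes gave 12 tested probe sets, 5 with a positive and 7 with a negative difference (median -0.03). Hspa1a, a stress-induced cytosolic Hsp70, read 1299.8, 1910 and 3066.4 in EGFP-high cells, against 1079, 1193.3 and 1943.4 in EGFP-negative cells. Its near-identical neighbor Hspa1b read 2114, 4095.1 and 3468 in EGFP-high cells, against 1791.8, 2216.2 and 2342.7 in EGFP-negative cells. For both genes the EGFP-high array was the higher one within every number, while the groups as a whole overlapped. Hspa1a differed by 0.53 ± 0.32 (SE, n = 3 each), with limma adjusted p = 0.472 and, with the replicate block, 0.033. Hspa1b differed by 0.56 ± 0.25, with adjusted p = 0.286 and 0.0378 with the block. The difference of Hspa1a was 0.21 without the EGFP-high array of number 3 and 0.82 without that of number 1. That of Hspa1b was 0.36 without the EGFP-high array of number 2, and 0.84 without that of number 1, where it passed (adjusted p = 0.035). With the block, both calls were lost without the arrays of number 2 (adjusted p = 0.222 for Hspa1a and 0.264 for Hspa1b) or number 3 (0.156 and 0.135). Calls over all tested probe sets also fell then, from 778 with the block to 415 without number 2 and 384 without number 3. The probes of transcripts as similar as Hspa1a and Hspa1b may read both, so their results are not taken as independent. The counts of member probe sets nevertheless hold both.

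Hspa4l, an Hsp110 family member, read 252.8, 234.4 and 285.2 in EGFP-high cells, against 188.2, 125.4 and 175.5 in EGFP-negative cells. All EGFP-high arrays stood above all EGFP-negative ones. The difference was 0.62 ± 0.19 (SE), with limma adjusted p = 0.112 and 0.0389 with the block, or 0.253 and 0.156 with the block and without number 2 or 3. Hspa1l, an Hsp70 best known from the testis, lies next to Hspa1a and gave 92.9, 116.4 and 75.9 in EGFP-high cells, against 67, 17 and 27.3 in EGFP-negative cells. The groups did not overlap, but 2 of the 3 EGFP-negative values were no higher than the brightest bacterial or yeast control on their array. Its difference of 1.10 ± 0.33, with adjusted p = 0.105 and 0.058 with the block, is therefore set partly against background. It was 0.61 with a larger and 1.42 with a smaller pseudocount.

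The other Hsp70 genes gave negative or smaller differences, and none passed. Hspa8, the abundant cytosolic Hsc70, read 1313.1, 1196 and 1749.3 in EGFP-high cells and 1511.4, 1556.7 and 1745.1 in EGFP-negative cells, a difference of -0.19 (adjusted p = 0.662). Hspa9, the mitochondrial Hsp70 that draws precursors into the matrix, read 532.2, 396.6 and 442.4 in EGFP-high cells, against 725.1, 508.7 and 583.2 in EGFP-negative cells. It was lower within every number, with a difference of -0.39 ± 0.19 and adjusted p = 0.340. Hspa5 (BiP), the ER Hsp70, read 766.2, 826.4 and 1479.8 in EGFP-high cells, against 776.5, 965.4 and 2945.2 in EGFP-negative cells. It was lower within every number, by -0.02, -0.22 and -0.98. The EGFP-negative array of number 3 stood far above the rest: the difference was -0.41 ± 0.46 with it and 0.17 without it (adjusted p = 0.725 and 0.827). The value without it keeps the EGFP-high array of number 3, the highest of its group, without its partner. Hsph1, a heat-inducible Hsp110, differed by -0.03 and the brightest probe set of Hspa4, its constitutive relative, by 0.06. Another Hspa4 probe set read 79.2, 67.4 and 91.9 in EGFP-high cells, against 105.4, 112.5 and 134.4 in EGFP-negative cells (-0.47, adjusted p = 0.228), so the probe sets of this gene disagreed.

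Hsp90 holds kinases and steroid receptors in a form ready for activation. Hsp90aa1, the inducible cytosolic form, read 1030.4, 1019.3 and 1666.4 in EGFP-high cells, against 941.1, 685.4 and 1260.4 in EGFP-negative cells. Hsp90b1 (Grp94), the ER form, read 676, 486.9 and 603.7 in EGFP-high cells, against 875.7, 723.3 and 715.2 in EGFP-negative cells. Hsp90aa1 was higher within every number, with overlapping groups, and Hsp90b1 was lower on all EGFP-high arrays. Without the EGFP-high array of number 3 the Hsp90aa1 difference was 0.13, without the EGFP-negative array of number 2 it was 0.14, and without that of number 3 it was 0.57. Neither difference passed, at 0.36 ± 0.26 (adjusted p = 0.565, block 0.128) for Hsp90aa1 and -0.38 ± 0.17 (adjusted p = 0.308, block 0.104) for Hsp90b1.

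Small heat shock proteins hold unfolding proteins in soluble complexes without using ATP. All 4 tested probe sets, of 3 genes, were higher in EGFP-high cells within every number (median 0.52), against 21.9% of all tested. None of the 4 passed in either fit. Hspb8, which works with Bag3 in selective autophagy of misfolded protein, read 856.7, 1441.6 and 1272.5 in EGFP-high cells, against 634.8, 854.4 and 1043.2 in EGFP-negative cells. Its difference was 0.48 ± 0.24, with adjusted p = 0.367 and 0.057 with the block. A dimmer Hspb8 probe set read 109.2, 100.1 and 121.3 in EGFP-high cells and 71.9, 72.7 and 59.9 in EGFP-negative cells, with no overlap (0.57, adjusted p = 0.125). Hspb2, known from muscle, read 161.3, 210.5 and 180 in EGFP-high cells, against 124.1, 159.8 and 156 in EGFP-negative cells (0.29, adjusted p = 0.460). Hspb11, also known as Ift25 and a part of the ciliary transport machinery, differed by 0.73, but this rested on a value of 11.6 on the EGFP-negative array of number 1. Without that array its difference was 0.04. Hspb1 (Hsp25), inducible and known from differentiating epidermis, did not pass the filter. Its probe set lay at the level of the bacterial and yeast controls on all 6 arrays, at 26.7, 18.2 and 17.5 in EGFP-high cells and 15.1, 24.7 and 2.5 in EGFP-negative cells.

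J-domain proteins deliver clients to Hsp70 and trigger its ATP hydrolysis. The 27 genes gave 30 tested probe sets of 24 genes, 17 positive and 13 negative (median 0.01), and none passed in either fit. Dnajb1 (Hsp40), the classical heat-induced partner of Hsp70, read 427.8, 351.3 and 426.7 in EGFP-high cells, against 498.4, 444 and 706.3 in EGFP-negative cells. Every EGFP-high value lay below every EGFP-negative value, opposite to Hspa1a and Hspa1b, with a difference of -0.41 ± 0.20 (adjusted p = 0.343, block 0.126). Dnaja1, which partners cytosolic Hsp70, read 418.9, 383.8 and 373.2 in EGFP-high cells and 313.6, 269.7 and 389.6 in EGFP-negative cells (0.27, adjusted p = 0.496). Dnajb4, another Hsp40, was higher within numbers 1 and 2 and lower within number 3, by 0.33, 0.44 and -1.01. Dnajc5, the cysteine string protein of secretory vesicles, had the lowest difference of any member, -0.98 ± 0.54 (adjusted p = 0.422). It read 129.2, 10.3 and 106.8 in EGFP-high cells, against 177.6, 98.8 and 163 in EGFP-negative cells. The EGFP-high array of number 2 carried most of this, and without it the difference was -0.24. Dnajb13, known from cilia and sperm flagella, read 157.6, 108.7 and 86 in EGFP-high cells, against 216.4, 127.8 and 189.4 in EGFP-negative cells (-0.53, adjusted p = 0.324).

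Chaperonins are ring complexes that enclose a folding protein. The cytosolic ring TRiC, which folds actin and tubulin, is built from Tcp1 and the Cct proteins, and the mitochondrial ring from Hspd1 (Hsp60) with its lid Hspe1 (Hsp10). The 15 tested chaperonin probe sets, of 11 genes, held 3 positive and 12 negative differences (median -0.12). Higher within all numbers were 0, against 21.9% of all tested, and lower within all of them 7 (46.7%, against 22.9%). The 7 include more than 1 probe set of Cct3. Cct5 read 864.6, 694.2 and 830.5 in EGFP-high cells, against 1312.4, 1026 and 1006.1 in EGFP-negative cells. The groups did not overlap, and the difference was -0.47 ± 0.17, with adjusted p = 0.183 and 0.0493 with the block. The block call was lost without number 1, 2 or 3 (adjusted p = 0.131, 0.275 and 0.073). A second, dimmer Cct5 probe set differed by -0.05 only. Cct4 read 1024.8, 669.2 and 776 in EGFP-high cells, against 1202.4, 911.5 and 1043.1 in EGFP-negative cells (-0.36, adjusted p = 0.407). Tcp1 read 143.6, 64.6 and 132.4 in EGFP-high cells, against 181.9, 140.7 and 143.2 in EGFP-negative cells (-0.45, adjusted p = 0.454). Both were lower within every number without passing. Hspe1 read 653.5, 508.3 and 640.6 in EGFP-high cells, against 725.4, 674.8 and 754.4 in EGFP-negative cells, with no overlap (-0.26, adjusted p = 0.478). Hspd1 read 1341.2, 785.6 and 1119.4 in EGFP-high cells and 1158.5, 1124.2 and 1158.4 in EGFP-negative cells, and the sign of its difference varied between numbers (-0.12, adjusted p = 0.833). Its dimmer probe set gave the largest chaperonin difference, -0.53, and read 249.6 on the EGFP-negative array of number 1. Without that array it was -0.14.

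Co-chaperones link Hsp70 to other machines. The 6 genes gave 12 tested probe sets, 6 positive and 6 negative (median -0.01). Bag3, a stress-induced nucleotide exchange factor that sends Hsp70 clients to autophagy, was measured by 2 probe sets of similar brightness. One read 140.7, 197.7 and 315.4 in EGFP-high cells, against 46, 75.5 and 187.2 in EGFP-negative cells. It was higher within every number, by 0.70 to 1.29, although the groups overlapped. The difference was 1.06 ± 0.41, with limma adjusted p = 0.225 and 0.00726 with the block, a call that held whichever replicate number was dropped. Without the block it was 0.69 when the EGFP-negative array of number 1 was left out and 1.52 (adjusted p = 0.0468) when that of number 3 was. The other, slightly brighter Bag3 probe set read 91.4, 251.9 and 236.1 in EGFP-high cells, against 69, 142.1 and 147.1 in EGFP-negative cells. It had the same sign within every number but did not pass, at 0.56 ± 0.37 with adjusted p = 0.516 and 0.0654 with the block. Its difference was 0.27 without the EGFP-negative array of number 1 and 0.98 without the EGFP-high array of number 1. It was 0.33 and 0.38 without the EGFP-high array of number 2 or 3.

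St13 (Hip), which stabilizes the ADP-bound form of Hsp70, was lower in EGFP-high cells with the block. One probe set read 85.9, 54 and 46.5 in EGFP-high cells, against 134.5, 109 and 110.5 in EGFP-negative cells. The groups did not overlap, and the difference was -0.78 ± 0.22, with adjusted p = 0.094 and 0.034 with the block, or 0.15 and 0.168 with the block and without number 2 or 3. Without the EGFP-high array of number 1 it passed unblocked (-0.98, adjusted p = 0.0282). The brighter St13 probe set also stood wholly below, at 206.7, 143.9 and 180.5 in EGFP-high cells against 238.5, 242.4 and 226.2 in EGFP-negative cells (-0.39 ± 0.17, adjusted p = 0.287, block 0.180). Stip1 (Hop), which passes clients from Hsp70 to Hsp90, differed by -0.15 (adjusted p = 0.753). Bag1, an exchange factor linked to the proteasome, differed by 0.03 (adjusted p = 0.958). The 46 tested probe sets not named by the rule for named genes differed by -0.47 to 0.57, with a lowest adjusted p of 0.125. Of the 61 genes, 6 had no tested probe set, namely Hspa14, Hspa2, Dnajb5, Dnajb8, Dnajc11 and Hspb1.

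**Figure D2:**
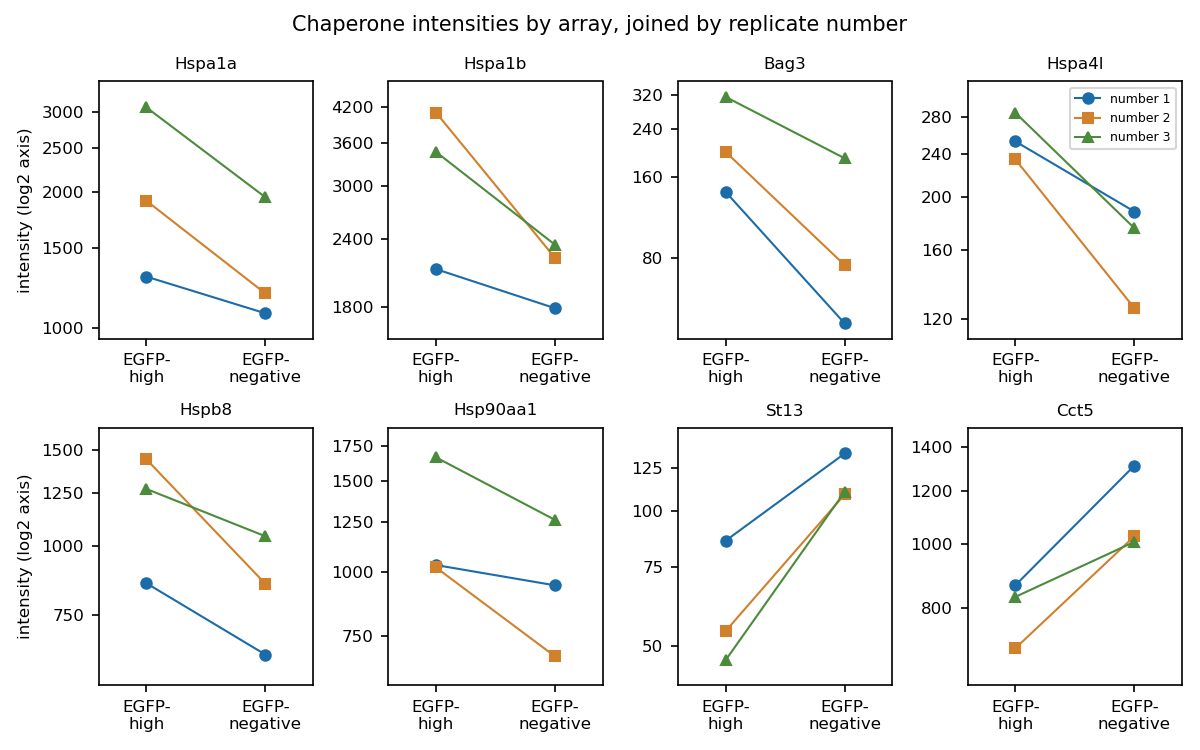
Intensity on a log2 axis of 8 chaperones on the 3 EGFP-high arrays (left) and the 3 EGFP-negative arrays (right), with lines joining the arrays of the same replicate number. All lines of Hspa1a, Hspa1b, Bag3, Hspa4l, Hspb8 and Hsp90aa1 lie higher at the EGFP-high end, and all lines of St13 and Cct5 lie lower there.

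For the comparison of inducible with constitutive genes, 1 probe set, the brightest, stood for each gene. Of 12 tested inducible genes, 7 had a positive and 5 a negative difference (median 0.32). Of 18 tested constitutive genes, 6 were positive and 12 negative (median -0.11). Over all tested, 3709 were positive and 3744 negative, with a median of -0.0017. None of either list passed without the block. With it, 3 inducible genes (Hspa1a, Hspa1b and Hspa4l) were called higher and 1 constitutive gene (Cct5) lower, beside 5.13% of all tested called higher and 5.31% lower. Among these calls Hspa1a and Hspa1b do not count as separate genes, and 1 of 18 is near the share of all tested. Within the numbers the inducible median was 0.25, 0.52 and 0.17, and the constitutive median -0.17, -0.27 and -0.09. Thus the inducible median was above the constitutive one in every number. Hspa1a and Hspa1b both entered the inducible medians and counts, which therefore weigh this near-identical pair as 2 genes. Medians with only 1 of the pair were not computed. Inducible genes higher within every number were Hspa1a, Hspa1b, Hspa4l, Hsp90aa1, Hspb8 and Bag3, while Dnajb1 and Hspe1 were lower within every number. Of the constitutive genes, Dnajc7 was higher within every number and 7 were lower, namely Hspa9, Dnajc5, Cct3, Cct4, Cct5, Tcp1 and St13. These were 6 of 12 inducible genes higher and 2 lower, and 1 of 18 constitutive genes higher and 7 lower. Among all tested named genes, also by the brightest probe set, 22.4% were higher within every number and 22.7% lower. The gap between the lists was not tested, since they were chosen with results of these data known, and each list joins genes of opposite sign.

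**Figure D3:**
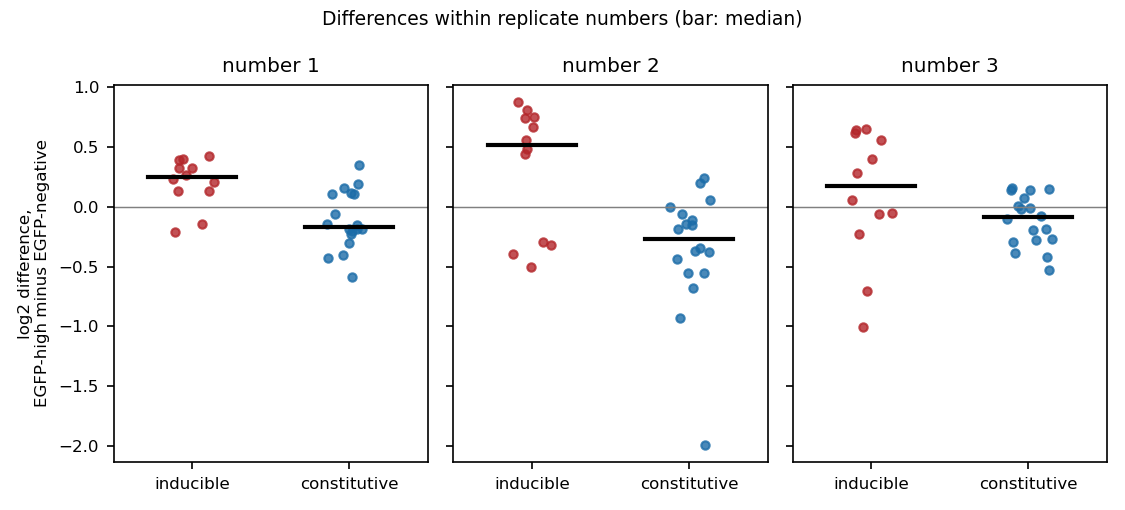
Log2 difference, EGFP-high minus EGFP-negative, within each replicate number for the 12 tested inducible and 18 tested constitutive genes (points), with the median as a black bar. The inducible bar lies above 0 and the constitutive bar below 0 in all 3 panels, and the points of both lists spread to both sides of 0.

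The lists also differed in summed intensity, in which the brightest genes weigh most. The inducible sum was 8932 to 12930 on EGFP-high arrays and 7778 to 10370 on EGFP-negative arrays, with overlap. The constitutive sum was 6442 to 7826 on EGFP-high arrays, wholly below the 8070 to 8936 of EGFP-negative arrays. Members of the ER had a median difference of -0.04 over 7 tested genes, and mitochondrial members -0.26 over 5, of which 4 were negative.

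Replicate number ordered many probe sets of the arrays alike in both groups. The shares among chaperones were somewhat above those of all tested, and the shares among immediate early genes were far above them. The same number was highest in both groups for 44 of 75 member probe sets (58.7%, against 48.2% of all tested) and lowest for 39 (52%, against 44.8%). All 13 tested genes of a list of immediate early genes, which dissociation and stress induce within minutes, were lowest on the arrays of number 1 in both groups, against 16% of all tested probe sets. In addition, 10 of 13 (76.9%) were highest on number 3 in both groups, against 12.7% of all. Fosb, a transcription factor of this class, read 673.4, 4132.1 and 3581.4 in EGFP-high cells, against 761.7, 3808.2 and 5910.1 in EGFP-negative cells. Among chaperones, 15 of 75 (20%) were lowest on number 1 in both groups, 18 (24%) highest on number 3 and 21 (28%) highest on number 1. Of the 12 inducible genes, 4 (33.3%, against 16% of all) were lowest on number 1 in both groups, namely Hspa1a, Hspa1b, Hspb8 and Bag3. Another 5 (41.7%, against 14.8% of all) were lowest on number 2, namely Hspa4l, Hsp90aa1, Dnajb1, Hspd1 and Hspe1. Highest on number 3 were 2 (16.7%, against 12.7% of all), namely Hspa1a and Hsp90aa1. Hspa1a, the Bag3 probe set called with the block, and Hspa5 stood lowest on number 1 and highest on number 3 in both groups, as most of the immediate early genes did. Dnajb9 (ERdj4), an ER J protein induced by unfolded protein, had the same order, at 107.1, 204.4 and 466.1 in EGFP-high cells and 70.3, 186.9 and 479.5 in EGFP-negative cells. Among constitutive genes 9 of 18 (50%) were highest on number 1 in both groups, against 19.2% of all.

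**Figure D4:**
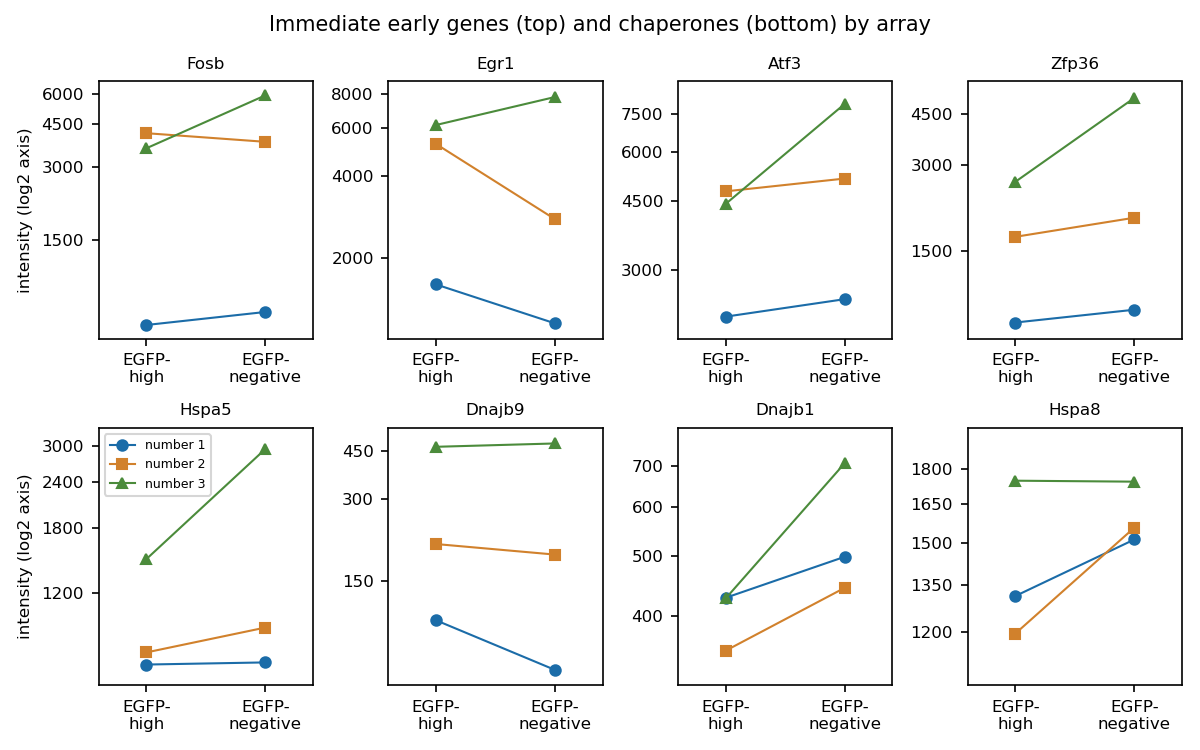
Intensity on a log2 axis of 4 immediate early genes (Fosb, Egr1, Atf3 and Zfp36, top) and 4 chaperones (Hspa5, Dnajb9, Dnajb1 and Hspa8, bottom) on EGFP-high arrays (left) and EGFP-negative arrays (right), joined by replicate number. Number 1 is the lowest in both groups for all 4 immediate early genes and for Hspa5 and Dnajb9.

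Between the sorted groups, 0 of the 13 immediate early genes passed in limma without the block (median -0.26). With it, Ier3 was higher, at 598.8, 1392.5 and 1971.2 in EGFP-high cells against 386.7, 544.6 and 1328.9 in EGFP-negative cells (0.83, adjusted p = 0.0176). Junb was lower, at 444.7, 945.2 and 1692 in EGFP-high cells against 1133.4, 1379.5 and 3083.7 in EGFP-negative cells (-0.90, adjusted p = 0.00922). With the block, 5.13% of all tested probe sets were called higher and 5.31% lower. The sums of the 13 immediate early genes overlapped, at 25100 to 49180 on EGFP-high arrays and 25020 to 73430 on EGFP-negative arrays. Whether the stress of isolation has a part in the chaperone values was not tested.

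Folding factors outside the chaperone families were taken as further lists. Serpinh1 (Hsp47), the ER chaperone of procollagen, was the one folding factor that passed without the block. It read 444.1, 665.2 and 662.8 in EGFP-high cells, against 225.1, 277.5 and 236.7 in EGFP-negative cells. All EGFP-high values lay above all EGFP-negative values, a difference of 1.18 ± 0.19 with limma adjusted p = 0.00849. It was 1 of 15 tested ER folding genes (median 0.03), of which 0 were called lower in that fit. Of all tested probe sets, 3.02% were called higher and 2.17% lower without the block. Pdia3, a disulfide isomerase that acts on glycoproteins, read 461.7, 463.2 and 419.5 in EGFP-high cells, against 655.9, 628.9 and 755.5 in EGFP-negative cells. It lay wholly below, at -0.58 ± 0.15, with adjusted p = 0.0652 and 0.0326 with the block. Of 15 tested cytosolic cofactors (median 0.01), 0 passed without the block and Fkbp5, an Hsp90 partner in steroid receptor complexes, passed with it. Of all tested probe sets, 5.13% were called higher with the block. Fkbp5 read 67.7, 181.5 and 144.9 in EGFP-high cells, against 30.8, 86.7 and 37.3 in EGFP-negative cells, higher within every number (1.09 ± 0.37, adjusted p = 0.159, block 0.0156). None of 6 tested mitochondrial folding genes passed in either fit.

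Markers of other skin cells were read on the same arrays. Summed over 6 melanocyte probe sets, intensity was 500.8 to 555.4 on EGFP-high arrays and 411.3 to 444.5 on EGFP-negative arrays, without overlap. Of these, 3 passed the filter: Sox10 differed by 0.31, Pmel by 0.49 and the pigment gene Dct by -0.07, and none passed the test. Thy1, carried by T cells and fibroblasts among others, was the one marker that passed and fell by 1.51, reading 18.4, 59.4 and 85.1 in EGFP-high cells against 164.1, 207.1 and 154.6 in EGFP-negative cells (adjusted p = 0.0382). The 3 other T cell probe sets, for Cd3e, Cd3g and Cd3d, did not pass the filter, and their differences had the opposite sign. Cd3e read 27.7, 28.7 and 135.4 in EGFP-high cells against 20.8, 19.5 and 21.7 in EGFP-negative cells. Cd3d read 18.6, 22.4 and 28.7 in EGFP-high cells against 2.2, 7.2 and 7.6 in EGFP-negative cells, at control level on all arrays. The sums of the 4 T cell markers, which join both signs, were 111.4 to 314.5 on EGFP-high arrays and 200.6 to 239.9 on EGFP-negative arrays. Fibroblast sums were 1011 to 1340 on EGFP-high and 1051 to 1196 on EGFP-negative arrays. Those of Langerhans cells and macrophages were 321.1 to 434 on EGFP-high and 225.7 to 476 on EGFP-negative arrays. Muscle sums were 179.5 to 319.9 on EGFP-high arrays and 314.3 to 343 on EGFP-negative arrays, and endothelial sums 113.6 to 168 on EGFP-high and 80.6 to 160 on EGFP-negative arrays. The part of these cells in the chaperone values was not tested.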

How the data were processed

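RNA of 6 sorted keratinocyte samples was measured on 1-colour Affymetrix mouse arrays. The authors deposited 1 linear intensity per probe set and array. The software behind them is not given in the sources used here. All 6 columns had a 2% trimmed mean of 150.1, so they had been scaled, and this scale was kept (medians 69.75 to 76.2). The 66 control rows were left out. Of the other 12422 probe sets, 10833 had 1 gene symbol in the platform annotation, 396 several and 1193 none. Symbols were checked against RefSeq GRCm38.p6 (10817 matched, 0 changed).

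Differences were tested on log2(intensity + 19.3), 19.3 being the 25th percentile of values above 0, for the 7453 probe sets whose mean log2 value was above the 40th percentile (an intensity near 44.5). The test was limma 3.58.1 in R 4.3.3 (lmFit, eBayes with an intensity trend). Tests were two-sided, and p-values were adjusted by Benjamini-Hochberg over all tested probe sets, with a threshold of 0.05 and 4 residual degrees of freedom. The script was tested on simulated data. Deviations from group means correlated at 0.336, 0.368 and 0.305 between the arrays of the same number, and at -0.0629 or lower otherwise. The deviations within a group sum to 0, so the negative values follow in part from the positive ones and are not separate evidence. Same-number arrays were treated as pairs. This pairing comes from the titles and the same-number correlations. Adjusted p-values with the number as a block (2 residual degrees of freedom) are printed where they change a call, and for other lead members.

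Text names every member that passed in either fit, all inducible genes, fixed anchor genes, the member with the largest difference in each role, and genes of other lists that passed. Dnajb9, Hspb2, the Hspa4 and Hspb8 probe sets, Cct4, Fosb and the genes listed by their sign within numbers were added after their values were seen. Members and lists were chosen with earlier results of these data known. The number of arrays limits the precision. Values at the level of the 19 bacterial and yeast controls (array maxima 27.3 to 49.9) were treated as not above background.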

Additional observations from a re-analysis of the deposited data

How the results depend on the processing

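The replicate block, a smaller and a larger pseudocount, no filter and a stricter one, the mean over a gene's probe sets, quantile normalization, no intensity trend, and leaving out each array were tried, and the alternatives that drop both arrays of a number were chosen after seeing the data. With the replicate block 4 chaperone probe sets were called higher and 2 lower, against 0 and 0 without it. Leaving out 1 array gave 0 to 1 higher and 0 to 1 lower: Hspa1b passed higher and St13 lower without EGFP-high replicate 1, and dropping EGFP-negative replicate 1 or 3 brought Hspa1l or Bag3 past the threshold upward. When both number 1 arrays were dropped, 1 was higher (Hspa1l, whose other EGFP-negative values are at control level). With the block and number 1, 2 or 3 dropped, 6, 1 and 1 were higher, and 1, 0 and 0 lower. Of all 7453 tested probe sets, these block fits called 388, 224 and 199 higher and 356, 191 and 185 lower. Without the block, dropping both number 1 arrays called 241 of all tested higher and 184 lower. Leaving out 1 array called 106 to 265 of all tested higher and 85 to 234 lower. Under the block, the called Bag3 probe set kept its call whichever number was dropped (adjusted p = 0.022, 0.0415 and 0.0248). The brighter Bag3 probe set, not called with the block (limma adjusted p = 0.0654), had 0.0461, 0.359 and 0.237 without number 1, 2 or 3. Hspa1a, Hspa1b, Hspa4l and St13 kept their calls without number 1 and lost them without number 2 or 3. Cct5 lost its call without each number. Over all tested probe sets the 778 calls with the block became 744, 415 and 384 without number 1, 2 or 3. The cause was not tested. The median of the inducible genes stayed between 0.15 and 0.49 and that of the constitutive genes between -0.17 and -0.05. Of the settings for single named genes, 535 left the call as it was, 20 made a call and 0 made one of opposite sign. The 535 include the mean over a gene's probe sets, which has no test and so could make no call. The tally also covers the alternatives chosen after seeing the data. Differences without a call could change sign between settings, as for Bag1. That of Hspa5 did so when the EGFP-negative array of number 3 was dropped without its same-number partner. No named chaperone passed in the main fit, so no call could be lost. Over all tested probe sets, 387 calls became 778 with the block.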
